A study of Homo sapiens with 9 samples.

Results

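Neural crest cells are specified at the border of the neural plate by a set of transcription factors, leave the neural tube and go on to form glia, neurons, pigment cells and mesenchyme. The 9 genes described here are 6 early specifiers (SOX9, FOXD3, TFAP2A, TFAP2B, SNAI2 and ETS1), the crest and glial factor SOX10, and ERBB3 and CDH19, a pair of genes of the crest-derived glia that are known as targets of SOX10. They were taken by gene symbol from a list of the crest programme, and all 9 were found among the 31589 genes that the tables of this series hold. The question was whether the glial genes followed SOX10 while the early specifiers did not.

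Messenger RNA of whole human spinal cord organoids (SCOs) was sequenced in 9 libraries, 3 for each of 3 conditions, after 96 h of exposure. The conditions were vehicle (titled FGF), VPA and VPA with Rapamycin. VPA is valproic acid, an anti-seizure drug that inhibits histone deacetylases, and Rapamycin inhibits the kinase mTOR. The SCOs were made from WTC, a human induced pluripotent stem cell line that the labels give as wild type. Per the study's methods, its clones C2, C36 and C40 carry a reporter cassette in the 3′ untranslated region of 1 SOX10 allele, and C36 and C40 also carry small insertions or deletions at that site on the other allele. Whether this editing bears on the SOX10 counts was not tested. Several SCOs were pooled for a library. Per the study, SCOs of these 3 clones were exposed to vehicle or VPA, and each such library stands for 1 of the 3. The study also exposed SCOs of 3 clones to VPA and to VPA with Rapamycin. Its legend for expression in all 3 conditions refers back to the same layout of clones. The labels repeat the names C4, C5 and C6 in every condition but do not tie them to clones, and they do not say whether a name stands for the same clone throughout. The p-values measure the spread between these libraries.

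In the neural crest, SOX9 and SOX10 are related factors of the SoxE family, and SOX10 stays on in the glial and pigment lineages after most early specifiers have been switched off. SOX10 is known to switch on ERBB3, the receptor through which Schwann cell precursors receive neuregulin signals. CDH19, a cadherin, marks the same precursors.

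The libraries held 15290299 to 17417338 reads counted on genes, and the smallest count that was told from 0 was taken as 3, or 0.172 to 0.196 CPM, counts scaled to a library of equal size for every sample. These limits cover counting error only. Replicates of a condition differed by 4.75 to 39.1 chi-square units per gene, where sampling noise gives about 1, and the highest value stood between vehicle replicates 1 and 3. Neural progenitor markers were abundant in every library, with 4021 to 5077 counts of SOX2 and 4469 to 5717 of PAX6. In bulk RNA, fewer cells of a type and less RNA per cell cannot be told apart.

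On GRCh38, SOX10 occupies 37970686 to 37987422 of chromosome 22 (minus strand), ERBB3 56076799 to 56103505 of chromosome 12 (plus strand) and CDH19 66501083 to 66604138 of chromosome 18 (minus strand). Of the specifiers, SOX9 lies on chromosome 17 (72121020 to 72126420) and FOXD3 on chromosome 1 (63323041 to 63325126), both on the plus strand. TFAP2A (10393186 to 10419659, minus strand) and TFAP2B (50818723 to 50847613, plus strand) are both on chromosome 6. ETS1 lies on the minus strand of chromosome 11 (128458761 to 128587558), and SNAI2 is on the minus strand of chromosome 8.

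The counts take in the exons of each gene. Some exon bases are shared with a gene on the other strand, and reads there cannot be told apart unless the strand was used. SOX10 shares 89 of its 3710 exon bases with POLR2F, FOXD3 shares 179 of 2086 with FOXD3-AS1, and TFAP2A shares 941 of 8274 with TFAP2A-AS2. Their mean counts over the 9 libraries were 243 for POLR2F against 106 for SOX10, 60.1 for FOXD3-AS1 against 92.0 for FOXD3, and 3.67 for TFAP2A-AS2 against 35.8 for TFAP2A.

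The RefSeq promoter windows (GRCh38.p14, 250 bases before to 50 after the transcription start) hold entries for 4 of the 9 genes, TFAP2A, TFAP2B, FOXD3 and CDH19. They were searched on both strands for ACAAAG and ACAATG, core words of the sequence that SOX factors recognise. The windows of FOXD3 and CDH19 held 1 match each and those of TFAP2A and TFAP2B 0, while 24.5% of all 35116 windows held at least 1 of the words. The stretches around both matches are printed because FOXD3 is the specifier and CDH19 the glial gene for which a window with a match was available; the capitals mark the match, which is a description of the letters and not of binding. The FOXD3 stretch is chr1:63322429-63322458 on the plus strand, where CTTTGT is ACAAAG on the other strand. The CDH19 stretch is chr18:66604277-66604306, read on the minus strand.
FOXD3: cgtctctcgtccCTTTGTtgacaattccct
CDH19: aaaaaaaaaaaaACAAAGataatcagctca

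VPA lowered SOX10 to near the limit of detection, and ERBB3 rose. CDH19 did not pass the test. Of the 8 genes that could be tested, 2 rose (ERBB3 and ETS1) and 4 fell (SOX10, FOXD3, SOX9 and TFAP2A) at an adjusted p of at most 0.05. The test was the quasi-likelihood test of edgeR, adjusted over all genes after Benjamini and Hochberg. Over all 17360 genes tested, 16.4% rose and 15.7% fell. TFAP2B did not pass the filter on low counts in any comparison.

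SOX10 had 347, 248 and 230 counts in the 3 vehicle libraries and 5, 10 and 9 with VPA. The groups lay far apart, and each VPA library was above the floor of 3 counts. Scaled for library size, the level was 283 ± 52.0 normalized counts in vehicle and 7.83 ± 2.67 with VPA (SD, n = 3 each), or 2.77% of vehicle. The log2 fold change was -5.15 (95% confidence interval -5.79 to -4.52, edgeR adjusted p = 2.52e-06), a 35.6-fold lower level. With 3 libraries against 3, an exact permutation test of a single gene cannot give a two-sided p under 0.1.

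ERBB3 had 141, 126 and 113 counts in vehicle and 309, 341 and 331 with VPA. All VPA libraries lay above all vehicle libraries, and replicates differed little within either group. The level went from 131 ± 11.9 to 320 ± 22.8 normalized counts (SD, n = 3 each). This was a log2 fold change of 1.29 (95% confidence interval 0.94 to 1.64, edgeR adjusted p = 0.000219). The neuregulin receptor was thus 2.45-fold higher in the VPA libraries, in which the mean of SOX10 was lowest. Which cells of the SCOs held the ERBB3 reads was not tested.

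CDH19 was counted 11, 2 and 32 times in vehicle and 21, 30 and 17 times with VPA. The groups overlapped, because vehicle replicate 3 held the highest count and vehicle replicate 2 lay under the floor. The log2 fold change was 0.53 with a 95% confidence interval of -0.94 to 2.00 (edgeR adjusted p = 0.582), which leaves out a fall of the size seen for SOX10. Without vehicle replicate 3 the estimate was 1.74 (edgeR adjusted p = 0.0479).

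The early specifiers did not move as a block. Among the 5 that were tested, FOXD3, SOX9 and TFAP2A fell with VPA, ETS1 rose and SNAI2 did not pass the test. Their median log2 fold change was -0.41, against -0.0030 over all genes tested.

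FOXD3, a forkhead factor needed to keep crest progenitors, had 87, 107 and 167 counts in vehicle and 40, 45 and 63 with VPA. The groups did not overlap. The log2 fold change was -1.37 (95% confidence interval -2.03 to -0.71, edgeR adjusted p = 0.00563), so that FOXD3 kept 38.4% of its vehicle level where SOX10 kept 2.77%.

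SOX9 had 1732, 1880 and 1826 counts in vehicle and 1360, 1476 and 1483 with VPA. It was the most abundant of the 9 genes, and every VPA library was below every vehicle library. The change was small, with a log2 fold change of -0.41 (95% confidence interval -0.65 to -0.18, edgeR adjusted p = 0.0141), and VPA libraries kept 75.0% of the vehicle level. The call was lost when vehicle replicate 2 (-0.35, edgeR adjusted p = 0.0801), VPA replicate 1 (-0.37, 0.0818) or VPA replicate 3 (-0.40, 0.0664) was left out. SOX9 is also a gene of neural progenitors and of cartilage. In the same comparison the cartilage gene ACAN rose (log2 fold change 1.62, edgeR adjusted p = 0.00337) and COL2A1 stood at -0.10 (edgeR adjusted p = 0.674). The 5 cartilage markers summed to 304 to 454 CPM in vehicle and 338 to 367 with VPA, and the part of cartilage in the SOX9 values was not tested. Of 6 neural progenitor markers, HES5 rose (log2 fold change 0.95, edgeR adjusted p = 0.000114) and VIM fell (-0.40, 0.00786), while SOX1, SOX2, PAX6 and NES did not pass the test. The 6 summed to 3498 to 3684 CPM in vehicle and 3434 to 3572 with VPA, and the part of progenitors in the SOX9 values was not tested either.

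TFAP2A and TFAP2B encode AP-2 factors that act at the neural plate border, and both were highest in vehicle replicate 3. TFAP2A had 10, 27 and 154 counts in vehicle and 5, 17 and 10 with VPA. The groups overlapped. The log2 fold change was -2.64 (95% confidence interval -4.52 to -0.77, edgeR adjusted p = 0.0348), but -0.88 without vehicle replicate 3 (edgeR adjusted p = 0.309). Leaving out VPA replicate 1, 2 or 3 also ended the call, with edgeR adjusted p-values of 0.122, 0.0591 and 0.117. DESeq2 gave an adjusted p of 0.0707.

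TFAP2B had 2, 2 and 307 counts in vehicle and 1, 0 and 0 with VPA. Apart from vehicle replicate 3, each of these libraries was at or under the floor, so no fold is given. The same vehicle library also held most of the counts of several other border and migration genes. ZIC1 had 10, 22 and 618 counts in vehicle, PAX7 had 11, 5 and 131, and MSX2 had 20, 3 and 225. These 3 genes were chosen after their values were seen. Surface epithelium also uses AP-2 factors. Of its 7 markers 6 were held, and these summed to 62.1, 33.7 and 21.4 CPM in vehicle replicates 1, 2 and 3. KRT8 had 534, 170 and 80 counts there, GATA3 250, 242 and 216, and TP63 0, 0 and 1. The part of surface epithelium in the AP-2 counts was not tested.

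SNAI2, a zinc finger repressor that acts as crest cells leave the epithelium, had 87, 42 and 72 counts in vehicle and 136, 83 and 83 with VPA. The groups overlapped, and the log2 fold change of 0.52 did not pass the test (95% confidence interval -0.14 to 1.18, edgeR adjusted p = 0.208).

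ETS1, a factor of cranial crest that is also used by endothelium, had 61, 32 and 75 counts in vehicle and 182, 129 and 135 with VPA. No VPA library was as low as any vehicle library. ETS1 changed by 1.34 on the log2 scale (95% confidence interval 0.70 to 1.98, edgeR adjusted p = 0.00551). Of 6 endothelial markers, 2 could be tested and 0 passed, with 1 unadjusted edgeR p under 0.05 (TEK) and 0 calls by DESeq2. The shares were 16.4% higher and 15.7% lower over all genes tested. TEK was at 1.13 (edgeR adjusted p = 0.0821) and KDR at -0.42 (0.316). With 2 genes tested, the part of endothelium in the ETS1 values was not settled. The 6 markers summed to 4.70 to 8.54 CPM in vehicle and 5.33 to 7.20 with VPA. VWF and EMCN were at 0 in vehicle replicates 2 and 3.

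Rapamycin together with VPA raised SOX10 and FOXD3 above their levels with VPA alone, and 0 of the 8 tested genes fell by edgeR (1 at an unadjusted p under 0.05, SNAI2) or by DESeq2. Over all 17317 genes tested, 3.01% rose and 3.73% fell. This comparison shares its VPA libraries with the one against vehicle, so the directions of those comparisons are not independent.

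SOX10 had 8, 37 and 63 counts with VPA and Rapamycin. The first of these libraries lay within the range of the VPA libraries and the other 2 above it. The log2 fold change was 2.19 (95% confidence interval 0.93 to 3.45, edgeR adjusted p = 0.0345). The call was not stable. Leaving out VPA+Rapamycin replicate 3 gave 1.46 (edgeR adjusted p = 0.268) and leaving out replicate 2 gave 2.20 (0.0597). Leaving out VPA replicate 1, 2 or 3 gave adjusted p-values of 0.127, 0.0866 and 0.0946. With all 9 libraries in a single fit it was 0.106.

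The VPA+Rapamycin libraries also differed in some of 6 genes listed as markers of oligodendrocyte precursors, cells that use SOX10 as well. OLIG2 had 14, 119 and 822 counts in the same 3 libraries and 0, 134 and 20 with VPA. In vehicle it had 65, 209 and 456 counts, where SOX10 had 347, 248 and 230. NKX2-2 had 29 counts in VPA+Rapamycin replicate 3 and 0 in the other two. OLIG1 rose with Rapamycin added to VPA (log2 fold change 3.10, edgeR adjusted p = 0.0392) and fell with VPA (-2.66, 0.0296). Each call was lost in 3 of the 6 fits that left out a library. Both were also lost with DESeq2 and with all 9 libraries in a single fit. GPR17 fell with VPA (-1.55, edgeR adjusted p = 0.00118). CSPG4 did not pass the test with VPA (-0.52, 0.321) or with Rapamycin added to VPA (0.13, 0.818). BCAS1 had 4, 6 and 6 counts in vehicle, 0, 5 and 4 with VPA and 10, 7 and 14 with VPA and Rapamycin. The 6 markers of this cell type summed to 27.4 to 57.9 CPM in vehicle, 5.42 to 22.1 with VPA and 10.6 to 104.8 with VPA and Rapamycin. Whether such precursors were present in the SCOs was not tested, and neither was their part in the SOX10 values.

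FOXD3 had 90, 139 and 90 counts with VPA and Rapamycin, all above the 40 to 63 counts of the VPA libraries. Against VPA this was a log2 fold change of 1.13 (95% confidence interval 0.60 to 1.65, edgeR adjusted p = 0.0104). The call was lost without VPA+Rapamycin replicate 2 (0.92, edgeR adjusted p = 0.0534) and with all 9 libraries in a single fit (adjusted p = 0.0987).

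The glial genes stood on the other side of 0 from SOX10 here too, without passing the test. ERBB3 had 270, 310 and 237 counts and a log2 fold change against VPA of -0.24 (95% confidence interval -0.51 to 0.02, edgeR adjusted p = 0.265). CDH19 had 15, 16 and 8 counts and a log2 fold change of -0.79 (-1.75 to 0.18, edgeR adjusted p = 0.341). Both intervals end below the estimate of 2.19 for SOX10 and below the lower end of its interval, 0.93.

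The other specifiers did not pass the test against VPA. SOX9 had 1473, 1944 and 1658 counts (log2 fold change 0.25, edgeR adjusted p = 0.0989), and TFAP2A 13, 19 and 67 (1.66, 0.107). SNAI2 had 88, 57 and 58 counts (-0.55, edgeR adjusted p = 0.218) and ETS1 175, 55 and 114 (-0.35, 0.525). TFAP2B had 8, 4 and 0 counts. The spread of ETS1 and TFAP2A within the 3 libraries was wider than the difference between the group means. Without VPA+Rapamycin replicate 1, SOX9 (0.35, edgeR adjusted p = 0.0178) and TFAP2A (2.05, 0.0345) passed as well. TFAP2A also passed with no filter on low counts (1.65, edgeR adjusted p = 0.00878).

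Compared with vehicle, SCOs exposed to VPA and Rapamycin kept a low SOX10 and a high ERBB3, and 0 of the 5 tested specifiers passed the test by edgeR or DESeq2, with 1 unadjusted edgeR p under 0.05 (ETS1). Of the 8 genes tested 1 was higher and 1 lower, where 9.81% of all 17383 genes were higher and 9.22% lower. This comparison shares its libraries with the other two. SOX10 stood at 36.2 ± 28.7 normalized counts (SD, n = 3), or 12.8% of vehicle, with a log2 fold change of -2.97 (95% confidence interval -3.99 to -1.94, edgeR adjusted p = 0.00229). ERBB3 stood at 269 ± 26.2, with a log2 fold change of 1.04 (95% confidence interval 0.67 to 1.41, edgeR adjusted p = 0.00268). The groups did not overlap for either gene. ETS1 had the largest positive estimate among the specifiers (0.99, 95% confidence interval 0.09 to 1.89, edgeR adjusted p = 0.114). It passed without vehicle replicate 3 (1.26, 0.0403) and without VPA+Rapamycin replicate 2 (1.34, 0.0401). ETS1 also passed with a replicate block (0.93, edgeR adjusted p = 0.0210) and with no filter on low counts (0.997, 0.0164). FOXD3 was at -0.25 (-0.86 to 0.37) and SOX9 at -0.16 (-0.44 to 0.11), intervals that leave out a fall of the size of SOX10.

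**Figure D1:**
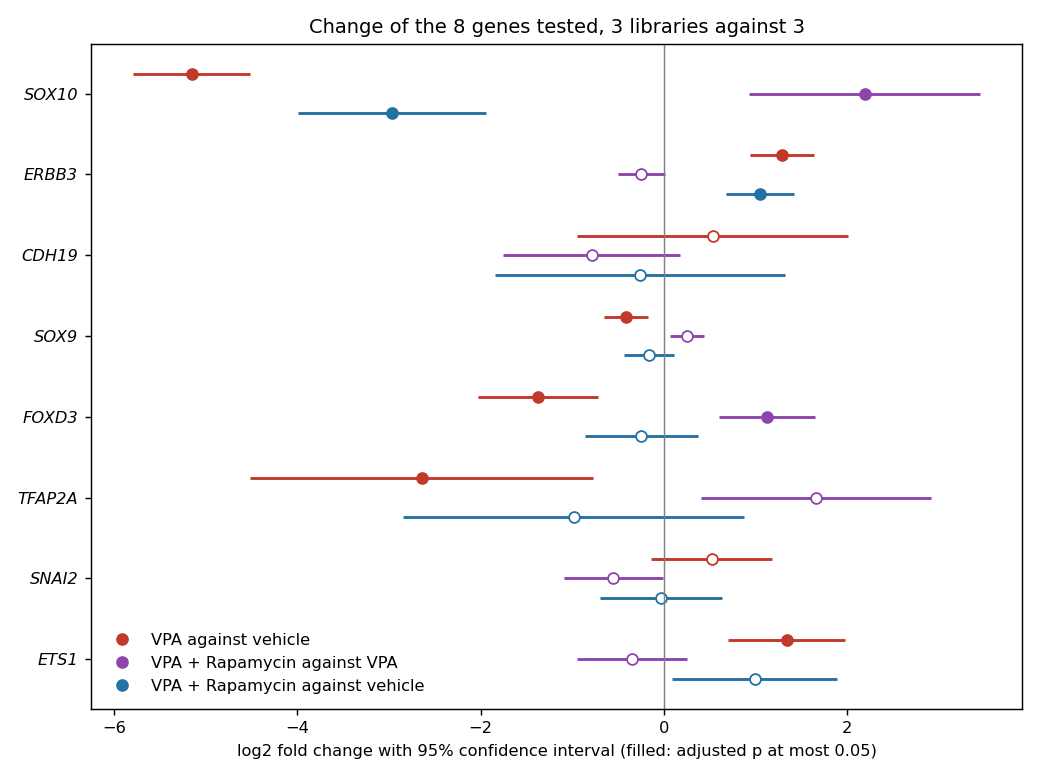
Log2 fold changes of the 8 tested genes (points) with 95% confidence intervals (lines) in the 3 comparisons. Filled points passed the test (edgeR, adjusted p at most 0.05). SOX10 (-5.15) and ERBB3 (1.29) lie on opposite sides of 0 for VPA against vehicle. In the first 2 comparisons FOXD3 (-1.37 and 1.13), TFAP2A (-2.64 and 1.66) and SOX9 (-0.41 and 0.25) lie on the same side as SOX10. ETS1 (1.34 and -0.35) and SNAI2 (0.52 and -0.55) lie on the other side. Of these specifiers FOXD3 alone passed in both.

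The distance between the glial genes and SOX10 was read library by library, as the difference of the log2 normalized counts. For ERBB3 minus SOX10 it was -1.30, -0.97 and -1.02 in vehicle and 5.81, 5.02 and 5.12 with VPA. Each VPA value lay above each vehicle value, with little spread within either group. The mean moved by 6.42 log2 units, from -1.10 ± 0.17 to 5.32 ± 0.43 (SD, n = 3 each). With VPA and Rapamycin the values were 4.99, 3.05 and 1.90, all between the vehicle and the VPA values.

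For CDH19 minus SOX10 the difference was -4.92, -6.66 and -2.83 in vehicle and 1.97, 1.54 and 0.88 with VPA. It was 0.87, -1.18 and -2.90 with VPA and Rapamycin, where the last library reached the range of vehicle. The mean moved by 6.26 log2 units between vehicle and VPA, beside a log2 fold change of -5.15 for SOX10 itself. These differences describe the libraries and were not tested, because the genes were chosen with results of these data known.

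**Figure D2:**
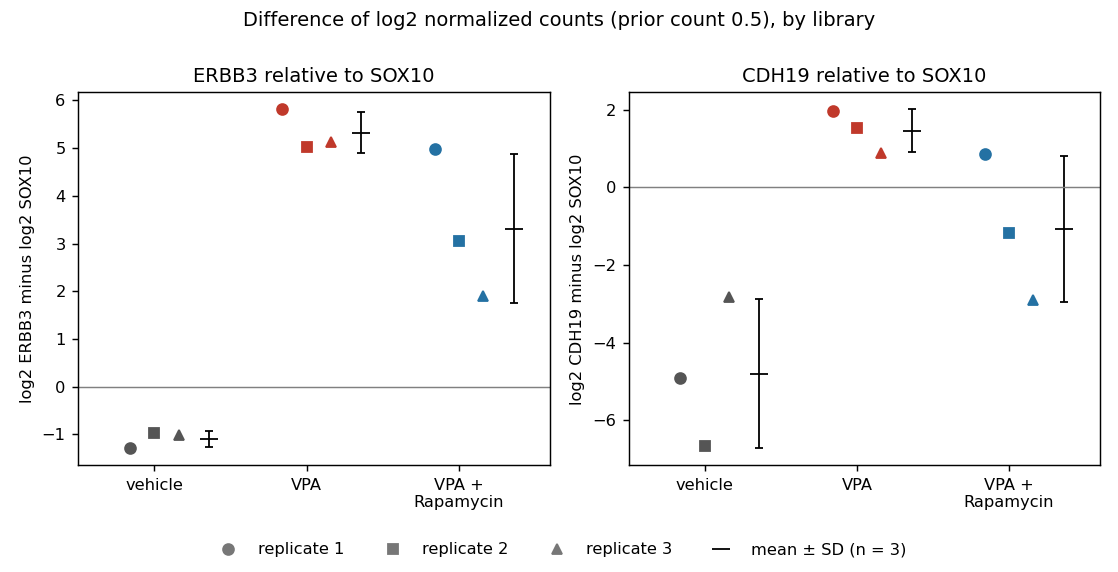
Difference of log2 normalized counts (prior count 0.5) between each glial gene and SOX10, on a log2 scale. Symbols mark the 3 libraries of each condition and bars give the mean ± SD (n = 3). ERBB3 minus SOX10 is near -1.10 in vehicle, near 5.32 with VPA and spread from 1.90 to 4.99 with VPA and Rapamycin.

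Levels between genes were compared per length, as the FPKM that the authors deposited. In vehicle, SOX9 was first of the 9 at 28.7 ± 2.75 FPKM, followed by SOX10 at 4.58 ± 0.83 and FOXD3 at 3.60 ± 1.29 (SD, n = 3 each). The ranges of SOX10 and FOXD3 overlapped. ERBB3 ranked 6 at 0.870 ± 0.078 FPKM and CDH19 ranked 9 at 0.135 ± 0.140. TFAP2B ranged from 0.019 to 3.11 FPKM, which overlapped with FOXD3 and with every gene ranked below FOXD3. TFAP2A ranged from 0.071 to 1.16 FPKM and overlapped with SNAI2 and ERBB3 as well as with ETS1 and CDH19. The genes below SOX10 were thus not put in a full order.

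With VPA, SOX10 ranked 7 at 0.127 ± 0.043 FPKM and ERBB3 ranked 2 at 2.13 ± 0.15. SOX9 still stood apart at 21.5 ± 1.26. ERBB3, SNAI2, FOXD3 and ETS1 formed a run of overlapping ranges between 1.06 and 2.37 FPKM, and CDH19, SOX10 and TFAP2A another at or below 0.267. With VPA and Rapamycin, FOXD3 ranked 2 at 3.01 ± 0.70 FPKM, ERBB3 ranked 3 at 1.78 ± 0.17 and SOX10 ranked 6 at 0.585 ± 0.465. The SOX10 range then overlapped with those of SNAI2, ETS1, TFAP2A and CDH19.

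The genes whose pattern over the 9 libraries was most like that of SOX10 were taken by the root mean square difference of centred log2 CPM, among 18008 genes. They were SLC17A6 (0.883), GABRR1 (0.895), SHD (0.922), HS3ST5 (0.950) and AC234771.4 (0.985). SLC17A6, a vesicular glutamate transporter of neurons, had 174, 199 and 468 counts in vehicle, 10, 7 and 9 with VPA and 31, 35 and 35 with VPA and Rapamycin. Of the other genes described here, 7 were ranked. FOXD3 ranked 769 (1.81) and TFAP2A 811 (1.82), ahead of SOX9 at 3383 (2.05). ERBB3 ranked 16718 (2.75), CDH19 16870 (2.79) and ETS1 17123 (2.88), near the end of the list. TFAP2B was not ranked, as it did not pass the filter.

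Other genes of the crest-derived glia also went in both directions with VPA. Of 14 Schwann cell precursor and SOX10 glial genes, 11 could be tested, 4 rose and 2 fell. Among all genes tested, 16.4% rose and 15.7% fell. The median log2 fold change of the list was 0.038 (-0.013 to 0.16 when a library was left out). EGR2, a factor of myelinating Schwann cells that is also an immediate early gene, had 13, 8 and 19 counts in vehicle and 490, 273 and 569 with VPA. It returned to 14, 19 and 20 with VPA and Rapamycin. PMP22, a protein of compact myelin, rose by a log2 fold change of 1.07 (edgeR adjusted p = 0.00127), and GFRA3, a receptor subunit of Schwann cell precursors, by 1.35 (0.0119, lost without VPA replicate 2). S100B, the fourth that rose (1.94, 0.0467), lost its call in 5 of the 6 fits that left out a library and was named after its value was seen.

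Of the genes of this list that fell with VPA, the adhesion molecule L1CAM had 3339, 2735 and 2772 counts in vehicle and 2060, 1999 and 2375 with VPA. The groups did not overlap, and the log2 fold change was -0.54 (edgeR adjusted p = 0.00239). Of 6 general neuron markers 4 fell in the same comparison, and the part of neurons in the L1CAM values was not tested.

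With Rapamycin added to VPA, 1 of the 11 rose and 3 fell, where 3.01% of all genes tested rose and 3.73% fell. EGR2 fell (log2 fold change -4.61, edgeR adjusted p = 2.49e-09). FABP7, a lipid-binding protein that neural progenitors use as well, fell by 0.55 on the log2 scale (0.000292). S100B also fell (-1.69, edgeR adjusted p = 0.0210, lost in 3 of 6 fits that left out a library) and L1CAM rose (0.28, 0.0450, lost in 5 of 6). FABP7 and L1CAM were named here after their values were seen, and with all 9 libraries in a single fit EGR2 alone of the 4 passed.

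**Figure D3:**
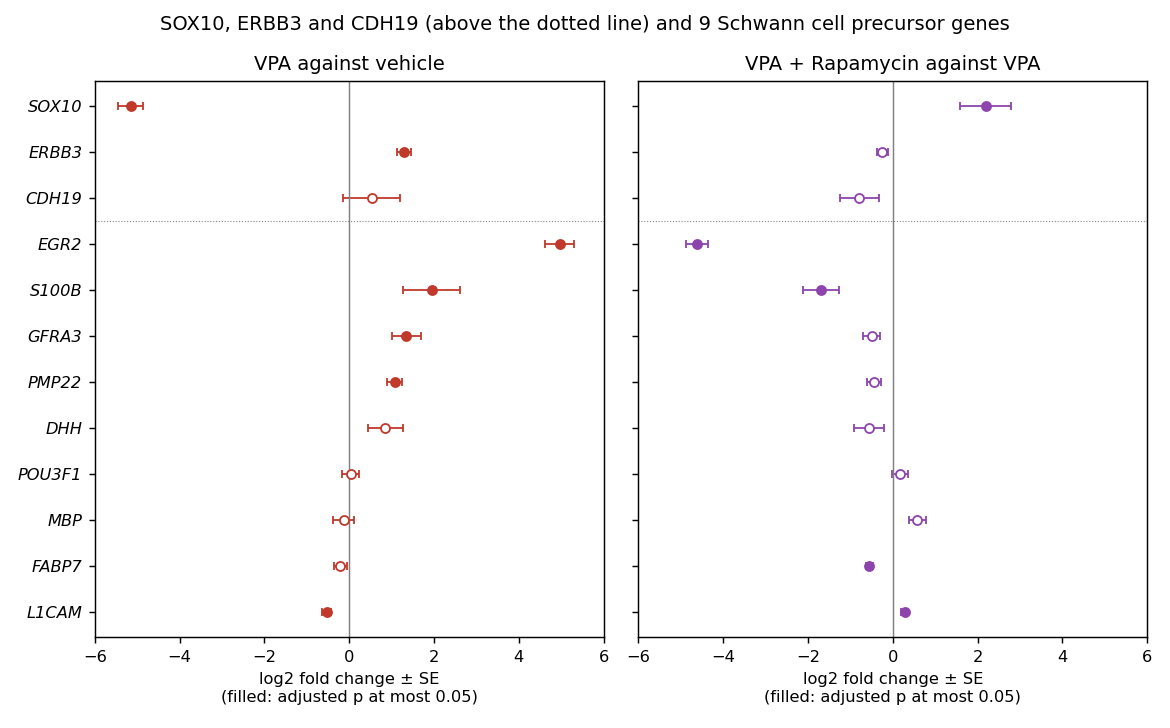
Log2 fold changes ± SE of SOX10, ERBB3 and CDH19 (above the dotted line) and of 9 Schwann cell precursor genes, for VPA against vehicle on the left and VPA + Rapamycin against VPA on the right. Filled points have an adjusted p of at most 0.05. With VPA, EGR2 (4.96) and L1CAM (-0.54) lie on opposite sides of 0.

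Of 7 neuregulins and other ERBB receptors, partners of ERBB3 in its pathway, 1 rose and 1 fell with VPA. Over all genes tested, 16.4% rose and 15.7% fell. EGFR, the founding receptor of the family, rose by a log2 fold change of 1.16 (edgeR adjusted p = 0.00193). NRG1, the neuregulin that Schwann cell precursors depend on, had 321, 415 and 472 counts in vehicle and 237, 212 and 269 with VPA (-0.84, edgeR adjusted p = 0.00484). The median of the list was -0.19, and between -0.45 and -0.049 when a library was left out. Against VPA alone, 0 of the 7 changed with Rapamycin by edgeR or DESeq2, and 2 had an unadjusted edgeR p under 0.05. Among all genes tested, 3.01% rose and 3.73% fell in that comparison. Against vehicle EGFR was higher (0.93, edgeR adjusted p = 0.0191), but not without vehicle replicate 2 or VPA+Rapamycin replicate 3.

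Among the genes of the melanoblast, the pigment lineage that also depends on SOX10, 3 of the 5 tested rose with VPA. By edgeR or DESeq2 0 fell, also at an unadjusted p under 0.05. The shares over all genes tested were 16.4% higher and 15.7% lower. MITF, the pigment cell factor that SOX10 is known to activate, had 1, 3 and 13 counts in vehicle and 26, 43 and 36 with VPA (log2 fold change 2.52, edgeR adjusted p = 0.0124). That call was lost without vehicle replicate 2 and without VPA replicate 2. PMEL, a protein of pigment granules, rose by 1.45 (edgeR adjusted p = 0.000273) and the receptor KIT by 0.91 (0.000720). The other tested genes, EDNRB (-0.52, edgeR adjusted p = 0.182) and DCT (-0.22, 0.769), had negative estimates and did not pass. TYR and TYRP1, the enzymes of the pigment itself, had 0 or 1 counts in each vehicle library and at most 5 with VPA. In vehicle PMEL already had 1995, 993 and 1243 counts and KIT 334, 349 and 411. The part of pigment cells in these values was not tested. Rapamycin lowered PMEL against VPA (-0.64, edgeR adjusted p = 0.00213), and PMEL (0.81, 0.0229) and KIT (0.63, 0.0122) were still higher than in vehicle. The last 2 calls were each lost in 2 of 6 fits that left out a library.

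Earlier in the lineage, 2 of 8 neural plate border factors fell with VPA and 0 rose by edgeR or DESeq2, also at an unadjusted p under 0.05. Of all genes tested, 15.7% fell and 16.4% rose. GBX2, a homeobox factor, fell by 1.04 on the log2 scale (edgeR adjusted p = 0.000792). ZIC1 fell by 3.88 (edgeR adjusted p = 0.0375), but stood at -0.14 without vehicle replicate 3 (edgeR adjusted p = 0.902), and leaving out VPA replicate 1, 2 or 3 ended its call as well. The median log2 fold change of the list was -1.15, but -0.25 without vehicle replicate 3, the library that held most counts of ZIC1, PAX7 and MSX2. With the replicate number as a block ZIC1 was at -2.42 and its call was lost as well (edgeR adjusted p = 0.0806). Against vehicle, GBX2 was also lower with VPA and Rapamycin (-0.63, edgeR adjusted p = 0.0307, lost in 3 of 6 fits that left out a library).

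Of 15 other specifier and migration genes, 2 rose and 3 fell with VPA, where 16.4% of all genes tested rose and 15.7% fell. The median of the list was 0.025 (0.022 to 0.11 when a library was left out). RXRG, a retinoid receptor of the crest, rose by 1.05 (edgeR adjusted p = 0.0140, lost without VPA replicate 2), and the repressor ZEB2 by 0.31 (0.0460, lost in 5 of the 6 fits that left out a library and with a replicate block). The cadherin CDH11 fell by 0.63 on the log2 scale (edgeR adjusted p = 0.00101) and CDH6 by 0.36 (0.0415, lost in 4 of 6 such fits and with a replicate block). B3GAT1, which makes the HNK-1 epitope of migrating crest cells, fell by 0.62 (0.00155). Which cells held the B3GAT1 reads was not tested. With Rapamycin added to VPA, CDH11 stood at 0.28 against VPA (edgeR adjusted p = 0.0241) and B3GAT1 at 0.26 (0.0464). These calls were lost in 4 and in 6 of 6 fits that left out a library. Both were also lost with a replicate block and with all 9 libraries in a single fit.

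Most crest neuron genes fell with VPA. Of 9 that were tested, 5 fell and 1 rose, where 15.7% of all genes tested fell and 16.4% rose. The proneural factor NEUROG1 fell by 0.88 on the log2 scale (edgeR adjusted p = 0.00193). The receptor RET rose by 1.00 (edgeR adjusted p = 0.00366). Several genes of this list are also used by neurons of the spinal cord, and of 6 general neuron markers 4 fell, DCX among them (-0.75, edgeR adjusted p = 0.00698).

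Of 12 crest mesenchyme genes 3 rose with VPA and 0 fell by edgeR or DESeq2, with 1 lower at an unadjusted edgeR p under 0.05. The shares of all genes tested were 16.4% higher and 15.7% lower. The median log2 fold change of the list was 0.15 (0.021 to 0.79 when a library was left out). COL1A2 had 1457, 436 and 1671 counts in vehicle and 6102, 4785 and 5260 with VPA (log2 fold change 2.12, edgeR adjusted p = 0.00100). COL1A1 rose by 1.11 (0.0124, lost without vehicle replicate 2 and without VPA replicate 1) and the surface protein THY1 by 0.80 (0.000760). The other genes of the list did not pass. Estimates were negative for PDGFRA (-1.06), TAGLN (-0.66), COL3A1 (-0.49) and PRRX1 (-0.43). They were positive for NT5E (2.01), CD44 (0.96), ENG (0.25), ACTA2 (0.057) and PDGFRB (0.020). With Rapamycin added, COL1A2 fell by 1.32 on the log2 scale against VPA (edgeR adjusted p = 1.08e-05) and COL1A1 by 0.79 (0.000682). THY1 was at -0.22 against VPA (edgeR adjusted p = 0.154). With all 9 libraries in a single fit the calls against VPA for COL1A1, COL1A2 and PMEL were lost.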

How the data were processed

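Poly-A RNA of 9 SCO libraries was primed with random hexamers by the authors. HISAT2 2.0.5 and featureCounts 1.5.0-p3 are named in the submitters' processing notes. The genome build and the use of strand are not given in the sources used here, but the gene coordinates equal those of GENCODE 29 on GRCh38 for 31589 of 31589 identifiers. The authors deposited 1 table for each pair of conditions (30034, 30047 and 29566 genes, 26871 of them in all 3), and each listed gene has at least 2 reads over the 6 libraries of its table. The deposited counts are whole reads per gene without normalization. The deposited FPKM values are fragments scaled for gene length and library size, as the authors computed them. Not used here were 18 columns of counts that the authors divided by size factors, their group means, and their own fold changes and p-values.

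Each comparison was fitted on the counts of its 6 libraries with edgeR 4.0.16 (quasi-likelihood test, TMM normalization, filterByExpr) in R 4.3.3, and p-values were adjusted over all genes tested after Benjamini and Hochberg with a threshold of 0.05. The 95% confidence intervals come from the same fit and are not adjusted. Normalized counts are counts divided by TMM-scaled library sizes relative to their mean over the 9 libraries. Differences between log2 levels used a prior count of 0.5, or 1 as an alternative. DESeq2 1.42.0, other normalizations and filters, a fit of all 9 libraries, a replicate block and leaving out each library were the alternatives. Genes were named by rule: the 9 genes, at most 3 higher and 3 lower with VPA per list with the smallest p among those called, and the 5 genes nearest to SOX10. Some genes that this rule names are not reported here. The genes and lists were chosen with earlier results of these data known.

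The test was tried on simulated data for VPA against vehicle (17360 genes, 5 simulations). edgeR found 64.8% of genes changed by 1 log2 unit and 90.6% of those changed by 2, and 7.06% of its calls were false, with 0 of the wrong sign. DESeq2 found 68.2% and 88.8%, and 13.3% of its calls were false. Over the 5 simulations 500 genes were changed by each size, a far smaller share than was called in the data. These rates therefore need not hold for the data. Same-numbered libraries deviated together with correlations of -0.06 to 0.16 between 2 conditions, and the sources used here do not say that a number stands for the same clone in each condition, so the numbers were not treated as pairs. Tables and figures were made with Python 3.11.15, numpy 2.4.6, pandas 2.3.3 and matplotlib 3.10.9.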

Additional observations from a re-analysis of the deposited data

How the results depend on the processing

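The fold changes of SOX10 and ERBB3 against vehicle kept their direction and their side of the threshold under every alternative in which they could be tested, and so did that of FOXD3 for VPA against vehicle. SOX10 could not be tested with at least 10 counts in every library. Over the 8 genes and 3 comparisons, 303 alternatives were computed, of which 270 changed neither direction nor call, 16 lost the call, 8 gained it and 9 changed sign. None of those that changed sign passed the test, and the cause was not tested. They were values against vehicle for VPA with Rapamycin: SNAI2 was at 0.00033 with upper-quartile normalization and from -0.25 to 0.16 without a library, and CDH19 at 0.087 with the replicate block and from -0.76 to 0.95 without a library. TFAP2A ranged from -2.08 to 0.78 and FOXD3 from -0.46 to 0.062 without a library.

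Of the 8 genes tested, 6 passed for VPA against vehicle, and 4 to 6 without a library. The number was 5 with DESeq2 and 7 with no filter on low counts, where 9 genes were tested. It was 4 with at least 10 counts in every library, where 5 were tested. For VPA with Rapamycin against VPA, 2 passed. This became 3 with no filter on low counts, where TFAP2A passed as well (1.65, edgeR adjusted p = 0.00878). It became 1 with at least 10 counts in every library, where fewer genes were tested, and 0 with all 9 libraries in a single fit. Without a library it was 0 to 4 (0 without VPA+Rapamycin replicate 2 and 4 without its replicate 1). Against vehicle 2 passed, which became 4 with no filter on low counts, 1 with at least 10 counts in every library, 3 with the replicate block and 2 to 3 without a library. The gene added by the replicate block was ETS1 (0.93, edgeR adjusted p = 0.0210). Without the filter ETS1 passed as well (0.997, edgeR adjusted p = 0.0164). TFAP2B then also entered the test (-4.70, edgeR adjusted p = 9.61e-07), on counts that came mostly from vehicle replicate 3.

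Over all genes the replicate block moved the calls for VPA with Rapamycin against vehicle from 1705 higher and 1602 lower to 2104 and 1936. By the correlation of their deviations, 2, 3 and 5 of 6 libraries were nearest to their own number in the 3 comparisons, and the numbers were not treated as pairs. Among the genes named, the replicate block ended the calls of ZIC1, CDH6 and ZEB2 for VPA against vehicle. It also ended those of CDH11 and B3GAT1 for VPA with Rapamycin against VPA. For VPA with Rapamycin against vehicle it added that of ETS1. The gap between ERBB3 and SOX10 ranged from 6.17 to 6.56 over its alternatives and that between CDH19 and SOX10 from 5.33 to 7.25. Of the 24 other genes named by rule for VPA, 17 kept their call in each fit that left out a library. Depth limited CDH19, TFAP2B and, with VPA, SOX10, whose counts were near the floor of 3 in several libraries.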
